A study of Mus musculus with 6 samples.

Results

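The epidermal differentiation complex (EDC) is a block of genes on mouse chromosome 3 that encode proteins of the upper epidermis. The genes described here carried a symbol of the Lce, Sprr or S100a family, or were Flg2, Lor, Ivl, Rptn, Hrnr, Tchh, Tchhl1, Crnn, Crct1 or Kprp, and each had at least 1 array row annotated to it alone. There were 56 such members among the 19935 genes measured: 19 Lce, 13 Sprr, 14 S100a and 10 others, called the single-copy members below. Flg was not analysed here, and Lce3d, Sprr2a1, Sprr2a2 and Sprr2a3, found on rows shared by several symbols, are not among the members. All 56 lie on chromosome 3 in the reference annotation.

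Total RNA of primary keratinocytes was measured on 6 single-colour arrays. The cells came from wild-type CD1 mice and were grown in low-calcium medium. In 3 cultures a retrovirus carried caNFATc1, a human NFATc1 whose mutated autoinhibitory domain makes it constitutively active. The 3 vector control cultures received the empty MSCV retrovirus, so all 6 cultures had been infected. Each row of deposited log2 values has been centred on its own median, which leaves differences between arrays and no levels, and a row near background cannot be recognised. The number of arrays limits the precision. Every value below is such a centred log2 value, and a difference is the caNFATc1 value minus that of the vector control.

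Same-numbered arrays of the groups shared much of their variation, and the number was therefore also fitted as a block. The replicates are described as biological, and nothing in the labels ties equal numbers to a shared culture or day. Both replicate 1 arrays stood apart from the other 4. Xist, which silences an X chromosome, was at least 5.97 below their values, and Eif2s3y, on the Y chromosome, at least 2.99 above them. The known NFAT target Rcan1 was higher in caNFATc1 cells (3.38 ± 0.19, SE of 3 against 3 arrays, adjusted p = 0.0113 in limma without the block). The row of mouse Nfatc1 differed by 0.04 (adjusted p = 0.847 with the block); whether its probes detect the human transgene was not tested. The keratinocyte keratin genes Krt5 and Krt14 differed by 0.03 and -0.02, and their levels, which would check the cell type, are not in centred values. Of 10 keratinocyte markers 5 were negative and 5 positive. Krt15 differed by -0.58, Dsp by 0.32 and Trp63 by 0.42 (adjusted p = 0.132, 0.108 and 0.0444 with the block).

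In stratified epidermis, cells that leave the basal layer replace their plasma membrane with the cornified envelope, a shell of proteins cross-linked by transglutaminases. Involucrin (Ivl) and loricrin (Lor), the small proline-rich proteins (Sprr) and the late cornified envelope proteins (Lce) are substrates of that cross-linking. S100 proteins are small calcium-binding proteins encoded at both ends of the complex, and the fused-type S100 proteins, such as filaggrin-2 (Flg2), hornerin (Hrnr), repetin (Rptn), cornulin (Crnn) and trichohyalin (Tchh), join an S100 domain to long repeats. Raising calcium in the medium induces this programme in cultured keratinocytes, and calcium also drives calcineurin, the phosphatase that activates NFAT factors.

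In caNFATc1 cells 9 genes of the Sprr, Lce and single-copy groups fell, and no S100a gene passed the test. With the replicate block, 9 of the 56 members fell and 0 rose, or 16.1% lower, where 2.38% of all genes were lower and 3.73% were higher. In the block fit 20 members had an unadjusted p under 0.05, as had 21.5% of all genes. The 9 were Sprr2j-ps, Sprr2g, Sprr1b, Sprr1a, Ivl, Lce1f, Lce1j, Lce1h and Lce1e. Without the block limma called 0 of 56, with 8 members at an unadjusted p under 0.05 (12.7% of all genes), and 0.01% of all genes were called lower and 0.206% higher. The calls therefore rest on the pairing of the arrays. All 3 pairs were negative for 24 members and positive for 6, against 21.3% and 21.6% of all genes. The groups did not overlap for 9 members that were lower and 4 that were higher, against 9.09% and 9.64% of all genes. After quantile normalization of the arrays, Sprr2j-ps, Sprr1b, Sprr1a and Lce1f still passed in the block fit and the other 5 did not (adjusted p between 0.0538 and 0.1).

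The Sprr genes held the largest falls of the complex. Sprr2j-ps, annotated as a transcribed pseudogene of the Sprr2 group, had values of 0.35, 1.30 and 1.44 in vector control replicates 1, 2 and 3 and of -1.37, -0.35 and -0.99 in the caNFATc1 replicates. The groups did not overlap. It was 3.83-fold lower (-1.94 ± 0.16, SE with the block, n = 3 pairs, adjusted p = 0.00617, and 0.115 without the block). Sprr2g, also annotated as a transcribed pseudogene, had values of -0.55, 2.04 and 1.35 in the controls and -1.25, 0.55 and -0.98 in caNFATc1 cells. These groups overlapped, and the pairs differed by -0.70, -1.49 and -2.33. Its mean difference was -1.51 ± 0.28 (adjusted p = 0.0427 with the block, 0.509 without), a call lost without replicate 2 of both groups (0.0824).

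Sprr1b and Sprr1a encode envelope precursors of stratified and stressed epithelia. Sprr1b had values of -0.23, 0.72 and 0.33 in the controls and -1.72, 0.23 and -0.96 in caNFATc1 cells. All 3 pairs were negative and the groups overlapped. The difference was -1.09 ± 0.19 (adjusted p = 0.0357 with the block, 0.468 without), and it did not pass without replicate 1 of both groups (0.0868). Sprr1a had values of -0.04, 2.39 and 0.04 in the controls and -0.87, 1.85 and -0.70 in caNFATc1 cells. Replicate 2 was far above replicates 1 and 3 in both groups, by more than the groups differed. The 3 pairs differed by nearly the same amount, -0.82, -0.54 and -0.75, with a mean of -0.70 ± 0.08 (adjusted p = 0.0132 with the block, 0.846 without). Leaving out vector control replicate 2 alone, which breaks that pair, turned the difference between group means to 0.09.

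The other Sprr genes passed neither fit. Sprr2d differed by 0.42, -1.09 and -0.88 in the 3 pairs, a mean of -0.52. Without replicate 1 of both groups it differed by -0.99 and passed with the block (adjusted p = 0.0151). Sprr2e and Sprr2k were also positive in pair 1 (0.40 and 0.48) and negative in pairs 2 and 3. Sprr3, an envelope precursor of the oral and oesophageal lining, differed by -0.15 (95% interval with the block -0.44 to 0.14). Sprr4, Sprr2b, Sprr2f, Sprr2h and Sprr2i lay between -0.20 and 0.03. Sprr2 genes are very similar in sequence, and signal of a copy may reach the probes of another, so their values may not be independent.

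Involucrin is an early envelope scaffold made in the spinous layer. Ivl had values of 0.17, 0.92 and 1.36 in the controls and -0.60, -0.17 and -0.49 in caNFATc1 cells, and the groups did not overlap. It was 2.35-fold lower (-1.24 ± 0.20, adjusted p = 0.03 with the block, 0.183 without). The call held with each pair left out in turn (adjusted p between 0.00493 and 0.0465).

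**Figure D1:**
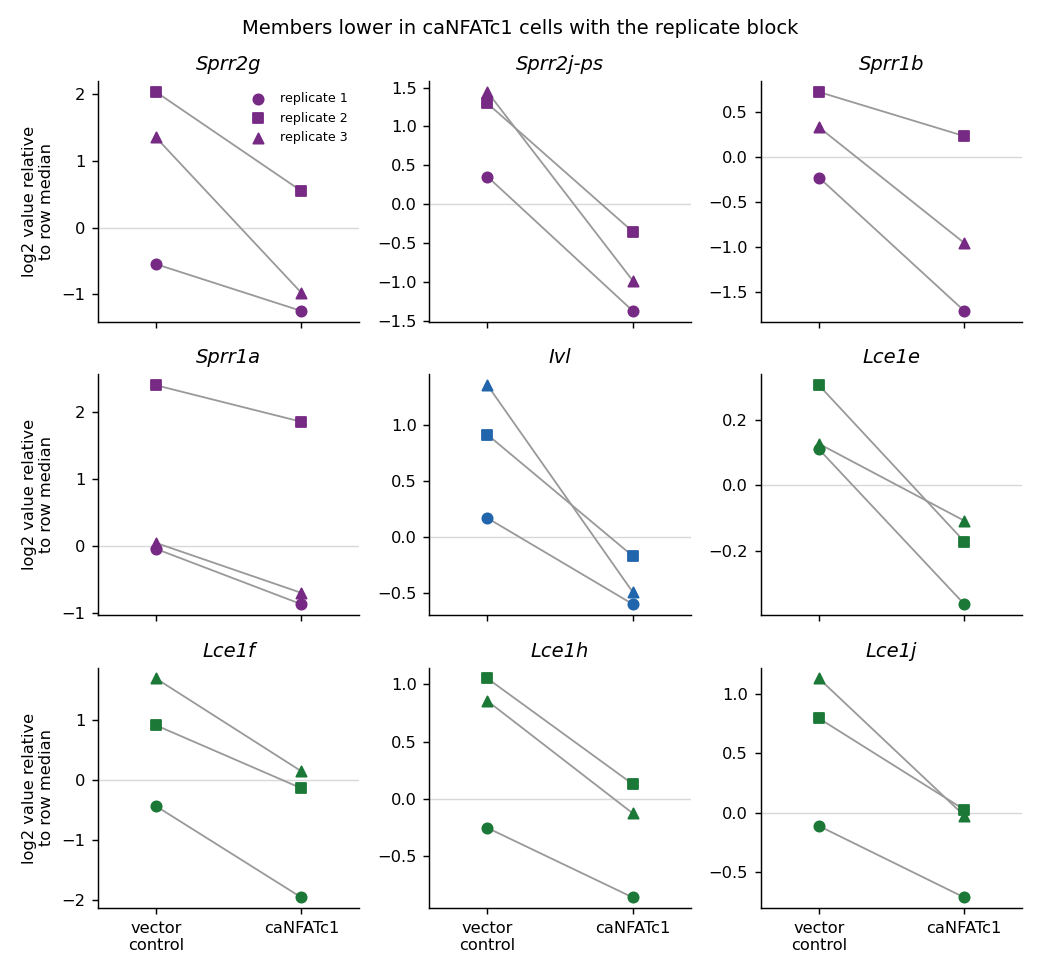
Log2 values relative to the row median (vertical axis, a separate scale for each gene) of the 9 members that fell with the replicate block, in vector control and caNFATc1 cultures. Markers stand for replicates 1 to 3 and lines join arrays of the same number. All 27 lines descend, while for 6 of the 9 genes the groups overlap.

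Among the Lce genes, the falls lay in the Lce1 group. Of 13 Lce1 genes, 13 had a negative difference, 9 were negative in all 3 pairs and 4 fell with the block. Among all genes the shares were 52.6%, 21.3% and 2.38%. Lce1f had values of -0.44, 0.91 and 1.69 in the controls and -1.97, -0.14 and 0.14 in caNFATc1 cells. Replicate 1 was the lowest in each group, and the groups overlapped. The pairs differed by -1.53, -1.05 and -1.55, a mean fall of 2.59-fold (-1.38 ± 0.11, adjusted p = 0.00617 with the block, 0.528 without).

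Lce1h had values of -0.25, 1.05 and 0.85 in the controls and -0.86, 0.13 and -0.13 in caNFATc1 cells. Lce1j had values of -0.11, 0.79 and 1.13 in the controls and -0.71, 0.03 and -0.03 in caNFATc1 cells. Both were lowest in replicate 1, and both overlapped between groups. They fell by nearly the same amount, 0.84 ± 0.09 and 0.84 ± 0.11 (adjusted p = 0.0127 and 0.0203 with the block). Lce1e had values of 0.11, 0.30 and 0.13 in the controls and -0.36, -0.17 and -0.11 in caNFATc1 cells, which did not overlap. Its difference was smaller, -0.39 ± 0.08 (adjusted p = 0.0463 with the block, 0.170 without), and the call was lost without replicate 1 or 2 of both groups (0.109 and 0.177).

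In chromosomal order the 6 members from Lce1e to Lce1j, which are Lce1e, Lce1f, Lce1g, Lce1h, Lce1i and Lce1j, were each negative in all 3 pairs. Their median difference was -0.62, between -1.38 and -0.24. The borders of this stretch are genes called in these same data. Its shared sign and median therefore describe a picked stretch and test nothing about chromosomal order. Lce1c, at -0.52, and Lce1g and Lce1i, at -0.24 and -0.37, did not pass (adjusted p = 0.0757, 0.101 and 0.0674 with the block). Lce1c passed with the block when replicate 3 of both groups was left out. The members on either side, Lce1d and Lce1k, differed by -0.01 and -0.20, with 95% intervals with the block of -0.17 to 0.14 and -0.43 to 0.03. The 5 Lce3 genes, which in human skin are linked to repair after barrier damage, lay between -0.18 and 0.07. Lce6a differed by -0.18. Lce genes are much alike too, and the same limit holds for them.

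**Figure D2:**
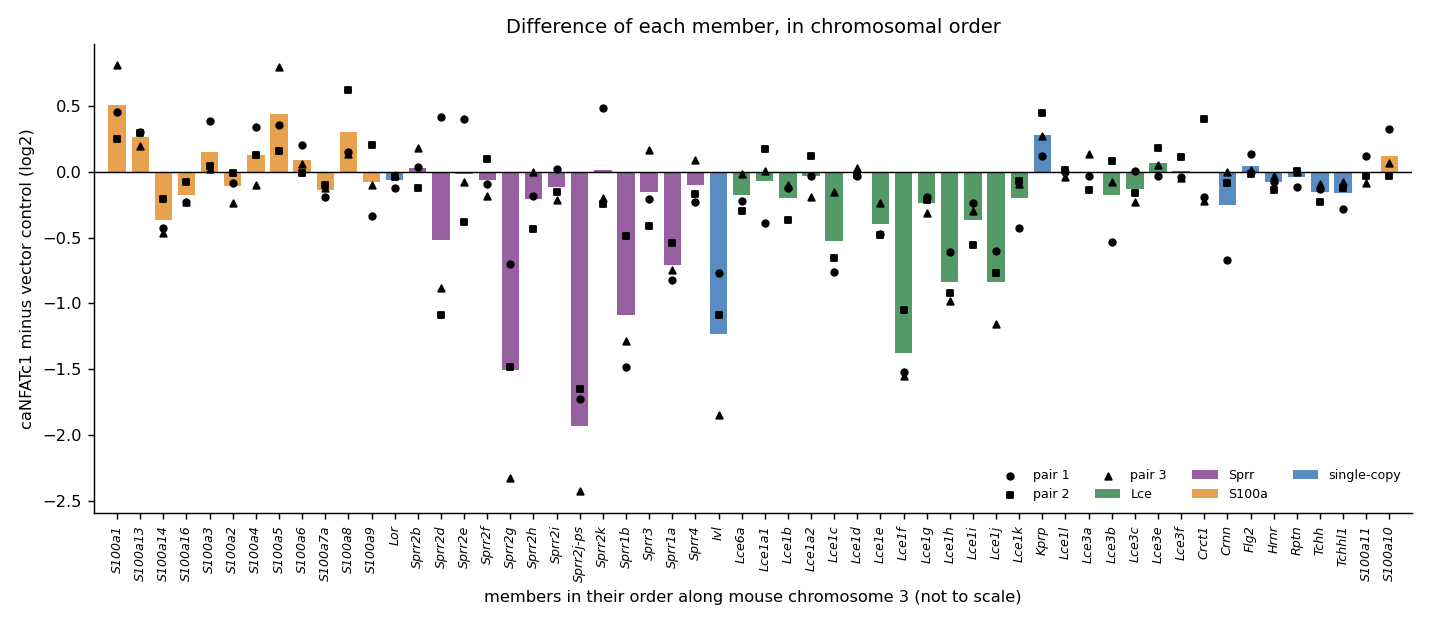
Difference caNFATc1 minus vector control (log2, vertical axis) of the 56 members in their order along mouse chromosome 3, not to scale. Bars are means of 3 pairs coloured by family and symbols are the pairs; the long negative bars lie between Sprr2d and Sprr1a, at Ivl and between Lce1c and Lce1j, while S100a bars at the left lie on both sides of 0.

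The promoters of falling members are shown because Sprr and Ivl genes on the one hand and Lce1 genes on the other differ in the motifs near the start. Sequences are the 250 bases before the annotated start, 5′ to 3′, from RefSeq on GRCm38.p6, a C57BL/6J assembly rather than CD1. Of the 56 members, 48 had an entry, among them 6 of the 9 that fell. Capitals mark the TATA box TATAAA and the sequence AATAAAAG, both searched on the gene's strand, and the AP-1 motif TGANTCA, which reads the same on both strands.
Sprr1b, chr3:92438780-92439029, minus strand: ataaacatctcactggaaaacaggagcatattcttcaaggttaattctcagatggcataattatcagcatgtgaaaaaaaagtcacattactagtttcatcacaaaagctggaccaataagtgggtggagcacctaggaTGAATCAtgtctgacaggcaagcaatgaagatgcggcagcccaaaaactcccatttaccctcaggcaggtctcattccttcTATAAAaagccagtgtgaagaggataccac
Sprr1a, chr3:92485882-92486131, minus strand: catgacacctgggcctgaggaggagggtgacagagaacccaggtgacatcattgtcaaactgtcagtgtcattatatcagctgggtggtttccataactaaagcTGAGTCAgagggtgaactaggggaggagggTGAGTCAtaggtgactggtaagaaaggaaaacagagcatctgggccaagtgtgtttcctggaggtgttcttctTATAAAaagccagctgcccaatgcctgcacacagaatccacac
Ivl, chr3:92573736-92573985, minus strand: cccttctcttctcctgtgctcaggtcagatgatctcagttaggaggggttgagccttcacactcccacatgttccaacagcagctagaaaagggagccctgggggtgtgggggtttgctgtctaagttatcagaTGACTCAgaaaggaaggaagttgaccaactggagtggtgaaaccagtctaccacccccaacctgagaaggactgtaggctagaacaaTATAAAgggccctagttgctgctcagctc
Lce1e, chr3:92709075-92709324, minus strand: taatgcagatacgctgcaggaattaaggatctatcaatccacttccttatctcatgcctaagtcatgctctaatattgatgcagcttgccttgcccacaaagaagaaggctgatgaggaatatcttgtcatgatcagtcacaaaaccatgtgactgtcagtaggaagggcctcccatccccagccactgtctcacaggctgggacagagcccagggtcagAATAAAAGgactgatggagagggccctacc
Lce1h, chr3:92765066-92765315, minus strand: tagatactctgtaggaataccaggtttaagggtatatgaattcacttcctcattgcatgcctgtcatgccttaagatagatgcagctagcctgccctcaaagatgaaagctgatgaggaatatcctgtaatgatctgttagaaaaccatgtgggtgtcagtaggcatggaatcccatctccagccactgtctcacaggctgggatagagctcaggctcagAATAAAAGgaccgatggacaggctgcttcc
Lce1j, chr3:92790515-92790764, minus strand: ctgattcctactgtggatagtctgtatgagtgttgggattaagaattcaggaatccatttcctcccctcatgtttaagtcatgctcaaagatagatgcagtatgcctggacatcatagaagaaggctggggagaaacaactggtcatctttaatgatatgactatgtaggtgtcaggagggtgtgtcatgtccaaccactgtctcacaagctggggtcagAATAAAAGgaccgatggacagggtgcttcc

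The AP-1 motif TGANTCA, where N is any base, was present in 9 of 11 Sprr promoters and 6 of 8 single-copy promoters. It was in 2 of 15 S100a promoters and 0 of 18 Lce promoters, against 6.75% of all 32851 promoters. The match was TGAATCA in Sprr1b, Crnn, Flg2, Tchhl1 and S100a16 and TGATTCA in Rptn. In the other members with a match, N was C or G. In Sprr1b, Sprr1a and Ivl the motif began 111, 116 (and 146) and 116 bases before the start. In the 7 Sprr2 promoters it began between 182 and 198 bases before the start. TATAAA occurred in 10 of 11 Sprr promoters and 1 of 18 Lce promoters, against 7.59% of all. The NFAT core GGAAA, searched on both strands, was in 55.6% of all promoters, in 8 of 11 Sprr, 7 of 18 Lce and 7 of 15 S100a promoters. In the 6 promoters printed it was in 3, and in 12 of the 24 promoters of other Lce and Sprr members. The AP-1 motif was in 3 of those 6 and 7 of those 24. The 6 include Ivl, while the 24 hold no single-copy member, so these sets are unlike. Lor, Crnn and Rptn, which passed neither fit, held both TATAAA and the AP-1 motif. Flg2 and Tchhl1, which also passed neither fit, held the AP-1 motif without TATAAA. Counts are of promoter entries, and S100a3 and S100a16 had several.

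The sequence AATAAAAG, looked for after the Lce1 promoters had been read, began 30 bases before the start in 7 of 12 Lce1 promoters and was in 0.983% of all. Those 7 genes were Lce1a2, Lce1c, Lce1e, Lce1g, Lce1h, Lce1i and Lce1j, and all but Lce1a2 (-0.03) had differences of -0.24 or lower. The 5 Lce1 genes with an entry and without it, Lce1a1, Lce1b, Lce1d, Lce1k and Lce1l, lay between -0.20 and -0.01. The border between these sets lay within the SE, with Lce1g at -0.24 ± 0.07 and Lce1k at -0.20 ± 0.09. The split also rests on exact matching. Lce1b and Lce1k held AATAAAAAG near the start and Lce1d TATAAAAG, which were not counted. Whether the sequence goes with the falls was not tested. The promoters of Lce1g and Lce1h were 84.5% identical and those of Lce1h and Lce1j 66.1%, while the differences of Lce1g, Lce1h and Lce1j were -0.24, -0.84 and -0.84. These matches describe the 250 bases before each start and are not shown to be binding sites.

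The S100a genes stood on both sides of 0. Of 14, 9 were positive and 5 negative, the range was -0.37 to 0.51, and 0 passed in either fit. An unadjusted p under 0.05 was found for 3 without the block (12.7% of all genes) and 6 with it (21.5% of all genes). The median difference was 0.10, against -0.18 for Lce, -0.15 for Sprr, -0.07 for the single-copy members and -0.01 for all genes. In pairs 1, 2 and 3 the S100a median was 0.18, 0.02 and -0.03, so its sign was not shared by the 3 pairs. The Lce median was -0.22, -0.16 and -0.10, the Sprr median -0.18, -0.41 and -0.20, and the single-copy median -0.12, -0.06 and -0.03. For all genes the median in these pairs was -0.06, 0.02 and 0.01. The Sprr median turned to 0.01 without vector control replicate 2 and the S100a median to -0.07 without vector control replicate 1.

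**Figure D3:**
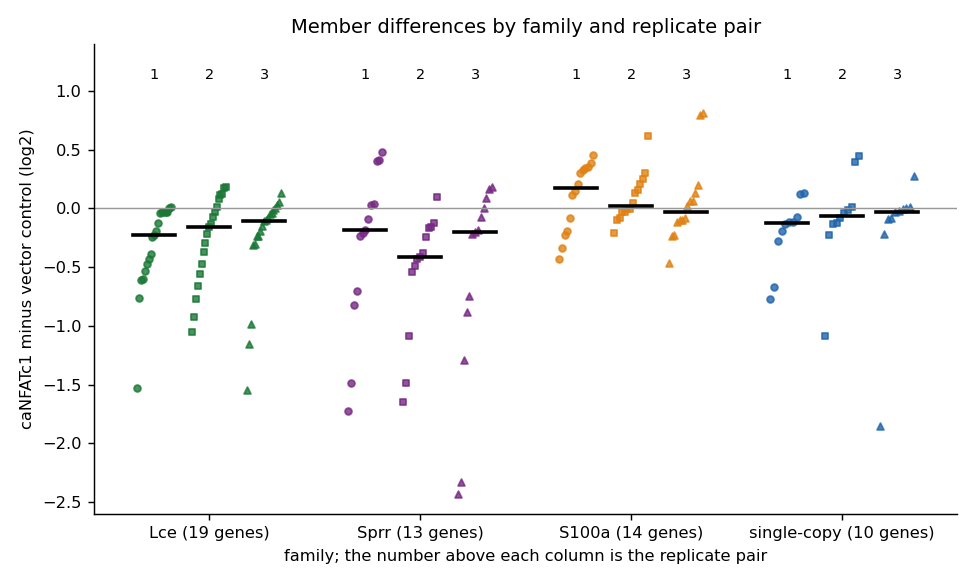
Differences caNFATc1 minus vector control (log2, vertical axis) of every member by family and replicate pair; a symbol is a gene and a bar the median of a family in a pair. The Lce and Sprr medians are below 0 in the 3 pairs, at -0.10 to -0.41, and the S100a medians are at 0.18, 0.02 and -0.03.

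At the end of the complex, S100a1 and S100a13 had positive differences and their neighbours S100a14 and S100a16 negative ones. None of the 4 passed either fit, and the difference between neighbours was not tested. S100a1, a calcium sensor best known from heart muscle, had values of 0.06, -0.31 and -0.46 in the controls and 0.51, -0.06 and 0.35 in caNFATc1 cells. All pairs were positive, the groups overlapped and the difference was 0.51 ± 0.11 (adjusted p = 0.0642 with the block). S100a13, which takes part in the release of growth factors without a signal peptide, had values of -0.16, -0.23 and -0.07 in the controls and 0.14, 0.07 and 0.13 in caNFATc1 cells, which did not overlap (0.27 ± 0.07, adjusted p = 0.0776).

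The next genes along, S100a14 and S100a16, are expressed in epithelia. S100a14 had values of 0.01, 0.40 and -0.01 in the controls and -0.42, 0.19 and -0.47 in caNFATc1 cells, negative in 3 pairs with overlapping groups (-0.37 ± 0.08, adjusted p = 0.0549). S100a16 differed by -0.23, -0.08 and -0.23 (adjusted p = 0.209). S100a5 differed by 0.36, 0.16 and 0.80 in the pairs, a mean of 0.44 ± 0.13 (adjusted p = 0.115), without overlap. The 95% intervals of S100a1, S100a13 and S100a5 with the block ran from 0.22 to 0.79, 0.10 to 0.43 and 0.12 to 0.76.

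S100a8 and S100a9 encode calprotectin, the antimicrobial dimer of neutrophils and stressed keratinocytes. S100a8 had values of -0.09, -0.03 and -0.10 in the controls and 0.06, 0.59 and 0.03 in caNFATc1 cells. The groups did not overlap, and the size rested on replicate 2 (0.62, against 0.15 and 0.13 in pairs 1 and 3; mean 0.30 ± 0.11, adjusted p = 0.201). S100a9 differed by -0.34, 0.21 and -0.10, a mean of -0.08 (95% interval -0.36 to 0.20). Of 9 haematopoietic markers, 0 were called in either fit, with 0 at an unadjusted p under 0.05 (12.7% of all genes without the block, 21.5% with it). Their median was -0.03. Their mean value lay between -0.02 and 0.09 in the controls and between -0.04 and 0.03 in caNFATc1 cells.

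S100a7a, the mouse psoriasin, differed by -0.14 (interval -0.30 to 0.02) and S100a11, which is a cross-linked envelope component, by 0.00 (interval -0.18 to 0.18). S100a10, the partner of annexin A2, differed by 0.12 (interval -0.10 to 0.34) and S100a6, calcyclin, by 0.09. S100a4, a gene of motile cells, ranged from -1.19 to 0.29 over the controls and from -0.84 to 0.19 in caNFATc1 cells. It was lowest in replicate 1 of both groups, and its difference was 0.12 ± 0.10 (adjusted p = 0.56). S100a3, a hair cuticle protein gene, and S100a2 differed by 0.15 and -0.11. Of 8 annexins, receptors and other S100 partners, 0 were called in either fit. With the block, where 21.5% of all genes had an unadjusted p under 0.05, 3 had one. These were Cd36, a fatty acid receptor (-0.57 ± 0.13, adjusted p = 0.0603), Tlr4, a receptor for calprotectin (0.64 ± 0.22, 0.169), and Anxa1 (-0.21 ± 0.06, 0.126). Anxa2 differed by -0.08.

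Among the single-copy members, those other than Ivl passed neither fit. Lor, the main protein of the mature envelope, had values of 0.05, 0.10 and -0.05 in the controls and -0.07, 0.05 and -0.08 in caNFATc1 cells. The groups overlapped, and the difference was -0.06 (95% interval -0.22 to 0.10). The 6 fused-type S100 genes, Flg2, Hrnr, Rptn, Tchh, Tchhl1 and Crnn, lay between -0.25 and 0.04 and passed neither fit. For Flg2, Hrnr and Rptn the intervals were -0.12 to 0.21, -0.24 to 0.08 and -0.20 to 0.13. Crnn owed its -0.25 to replicate 1, with pairs of -0.67, -0.08 and 0.00. Tchh and Tchhl1, the latter a relative of trichohyalin, differed by -0.15 and -0.16, each negative in 3 pairs. Kprp, a proline-rich keratinocyte protein gene that lies between Lce1k and Lce1l, was the member with the opposite sign among its neighbours. It was higher in all 3 pairs (0.12, 0.45 and 0.27) without overlap, and did not pass (0.28 ± 0.08, adjusted p = 0.12). Crct1 differed by -0.19, 0.40 and -0.22, a mean of -0.0035.

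For most members, as for most genes, the cultures differed among themselves by more than the groups did. The range of the 3 pair means exceeded the absolute difference for 38 of 56 members, 67.9% against 70.9% of all genes. That range was 2.58 for Sprr1a, 2.19 for Sprr2g, 2.12 for Lce1f, 1.53 for Sprr3 and Sprr2d and 1.26 for S100a4. Replicate 2 had the highest pair mean for 36 of 56 members (64.3%) and 12 of 13 Sprr genes, against 31.7% of all genes. Replicate 1 had the lowest pair mean for 32 of 56 members, against 7054 of 19935 genes. Of the 13 Lce1 genes, 11 were lowest in it. For the 9 genes that fell, leaving out replicate 1 of both groups gave differences between -2.04 and -0.36. Of the 9, 7 passed in that block fit, in which 1.01% of all genes were lower. The 9 had been picked by the block fit on these same arrays, so their count cannot be weighed against that share.

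**Figure D4:**
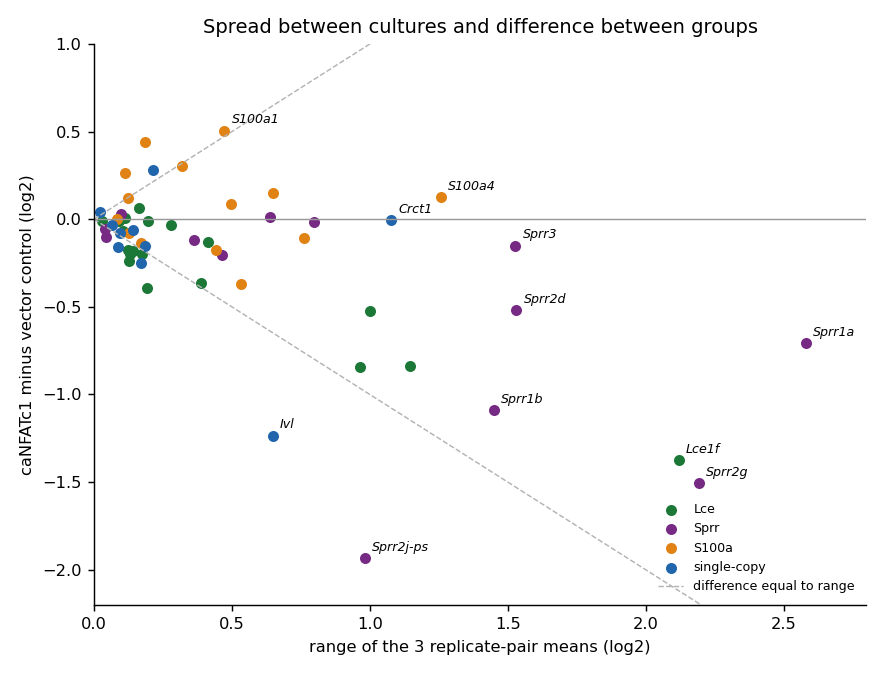
Difference caNFATc1 minus vector control (log2, vertical axis) against the range of the 3 replicate-pair means (log2, horizontal axis), a point per member coloured by family, with dashed lines where both are equal. Sprr1a, at a range of 2.58 and a difference of -0.70, lies far to the right, and Ivl and Sprr2j-ps lie below the lines.

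Genes that act with the complex were taken from 5 lists of 98 measured genes. With the block 13 fell (13.3%) and 4 rose (4.08%), against 2.38% lower and 3.73% higher of all genes. Without it limma called 0, with 16 at an unadjusted p under 0.05, where 12.7% of all genes had one. Without replicate 1 of both groups 11 were called lower and 1 higher with the block. Of the 17 genes, Stfa3, Trp63, S100pbp, Cebpb and Vdr then no longer passed (adjusted p between 0.0666 and 0.0941). Of 32 cornification enzymes and inhibitors, 7 fell and 0 rose, and the median was -0.07. Casp14, a caspase that processes filaggrin, fell by 0.93 ± 0.12 (adjusted p = 0.0172 with the block). Asprv1, a skin aspartic protease that also cuts profilaggrin, fell by 0.86 ± 0.16 (0.0406), and Blmh, which degrades filaggrin to amino acids, by 0.43 ± 0.07 (0.0304). The transglutaminase gene Tgm1, which cross-links the envelope, the deiminase gene Padi3 and the lipid enzyme genes Cers3 and Elovl4 fell by 0.64, 0.52, 0.92 and 1.02. Of 19 scaffold and keratin genes Krt6b fell and the stefin gene Stfa3 rose, by 0.87 and 0.64, and the median was -0.17.

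Of 30 regulators, 5 fell (16.7%) and 2 rose (6.67%) with the block, against 2.38% and 3.73% of all genes, with a median of -0.12. Fosl1, an AP-1 subunit, fell by 1.04 ± 0.13 (adjusted p = 0.0158 with the block), while Fosl2, another, rose by 0.74 ± 0.08 (0.0116). Zfp750 and Grhl3, which activate late epidermal genes, fell by 1.23 and 0.96, and Cebpb and Vdr by 0.43 and 0.42. Trp63, the master factor of stratified epithelia, rose by 0.42 ± 0.08 (0.0444). Of 9 other S100 genes and locus neighbours, S100pbp, whose protein binds S100P, rose by 0.36 (0.0474). Pglyrp3, Pglyrp4, Prr9, Lelp1 and Smcp, which lie within the complex, differed by between -0.12 and 0.28 without passing.

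Fewer differentiating cells and less RNA per cell cannot be told apart in these cultures. Of 8 fibroblast markers Col3a1 rose with the block (1.20 ± 0.19, adjusted p = 0.0296, and 0.0862 without replicate 1 of both groups). The mean value of the 8 lay between -0.10 and 0.00 in the controls and between 0.09 and 0.64 in caNFATc1 cells, highest in replicate 3. Their median difference was -0.07, 0.02 and 0.49 in pairs 1, 2 and 3, in which 5, 4 and 0 of the 8 were negative. Of 7 melanocyte and 5 endothelial markers 0 were called in either fit. None had an unadjusted p under 0.05 (12.7% of all genes without the block, 21.5% with it). Of 10 keratinocyte markers Trp63 rose. Whether these shifts have a part in the falls of envelope genes was not tested.

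**Figure D5:**
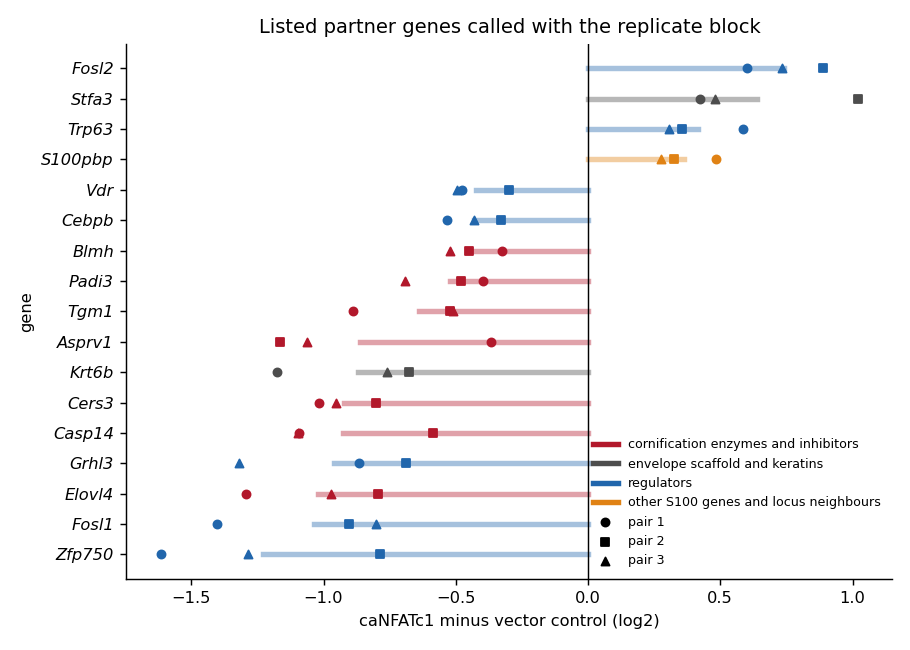
Differences caNFATc1 minus vector control (log2, horizontal axis) of the 17 listed partner genes that passed with the replicate block; bars are means of 3 pairs, symbols the pairs and colours the lists. From Zfp750 at -1.23 to Vdr at -0.42, 13 genes lie below 0 in all 3 pairs, and S100pbp, Trp63, Stfa3 and Fosl2 lie above 0.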

How the data were processed

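The values are the authors' deposited log2 values, 28815 rows on 6 arrays. Per the submitters' processing notes, RMA and the build mm8 were used. For row filters and software versions: not given in the sources used here. Row medians are 0 within 1e-06. Base 2 was taken from RMA. The platform annotation gave 21780 rows 1 symbol; rows of a gene were averaged, giving 19935 genes, and 57 rows gave the 56 members. Groups and replicate numbers come from the sample titles.

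Groups were compared with limma (3.58.1, R 4.3.3), lmFit and eBayes on group alone, 2-sided, Benjamini-Hochberg adjusted p under 0.05 over 19935 genes, tested on simulated data. P-values without the block measure differences against the spread between these cultures of a group. Those with the block measure them against the spread of the paired differences. To check the pairing, deviations from group means were correlated between arrays: the same numbers gave 0.71, 0.61 and 0.57, above the limit of 0.1, and other numbers between -0.60 and 0.18. A fit with replicate number as a block is therefore given beside it. An SE, interval or adjusted p marked "with the block" comes from that fit, as does each SE or adjusted p of a member for which no fit is named. Medians of families are descriptions without a test.

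The members and lists were chosen with earlier results of these data known. Named were the members past either fit, the 3 of each family with the largest absolute difference, the single-copy members, 7 fixed S100a genes and, of each other list, up to 6 genes past either fit; the remaining members and listed genes were named after their values were seen. Because values are centred by row, no filter on dim rows was made. Alternatives were other ways to combine rows, centring, quantile normalization, robust eBayes, a plain equal-variance test, a filter on SD and leaving out arrays or pairs.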

Additional observations from a re-analysis of the deposited data

How the results depend on the processing

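Without the replicate block, the count of members called over all genes was 0 under every row, scaling, moderation, filter and left-out array setting tried, and with the replicate block it was 9. With the replicate block and replicate 1, 2 or 3 of both groups left out it was between 7 and 10. Settings combined with the replicate block after the data were seen gave 9 with other ways to combine rows, 8 with arrays centred on their median (Sprr2g lost), 4 with quantile normalization and 14 with a fraction of 0.25 of the genes, those of lowest SD, left out, which tests fewer genes; that added Lce1c, Lce1i and S100a14 as lower and S100a1 and S100a5 as higher. The listed partner genes went from 0 to 17 with the replicate block and to 1 with the SD filter, and leaving out 1 array gave between 0 and 2 (2 without caNFATc1 replicate 2). With the block and without pair 1, 2 or 3 they were between 12 and 18 (13 without pair 3). Without 1 array or pair the family medians ran from -0.23 to -0.12 (Lce; -0.22 without caNFATc1 replicate 3), -0.33 to 0.014 (Sprr), -0.068 to 0.18 (S100a) and -0.13 to -0.037 (single-copy; -0.056 without vector control replicate 2, -0.16 with the SD filter). Of 28 named members, 20 kept their sign in all alternatives. Signs turned for Crct1 (0.0021 with centred arrays, 0.034 with quantile normalization) and S100a11 (-0.011 with quantile normalization). Without 1 array, values ran from -0.44 to 0.24 for Crct1, -0.045 to 0.033 for S100a11, -0.31 to 0.45 for S100a4, -0.091 to 0.21 for S100a6, -0.19 to 0.0093 for S100a9 and -1.58 to 0.093 for Sprr1a. Without a pair, Crct1 reached 0.10 (0.090 without pair 1), S100a11 -0.058, S100a9 0.053, Flg2 -0.0009 and Rptn 0.0027. The cause was not tested. Signal over background is unknown in row-centred values, and a filter on dim rows was not run.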

Other observations

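Rows annotated to several copies were kept out of the gene values. A pair of near-identical rows for Sprr2a1 and Sprr2a3 differed by -1.04, -0.48 and -1.03 in replicate pairs 1, 2 and 3, a mean of -0.85. A row shared by Sprr2a1, Sprr2a2, Sprr2a3 and Sprr2b differed by -0.53, -0.12 and -0.92, while the row of Sprr2b alone differed by 0.03, -0.12 and 0.18. A row shared by 6 Lce3 genes differed by -0.34, -0.19 and -0.15, lower in all 3 pairs, where the 5 Lce3 genes with rows of their own had a median of -0.01.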
